A study of Drosophila melanogaster with 12 samples.

Results

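The telomeric retrotransposons of Drosophila melanogaster were examined for histone H3 and for H3 acetylated at lysine 23 (H3K23ac) in ovaries depleted of Enok and in control ovaries. The elements were taken from the transposon tables by name, as all entries starting with HETA, TAHRE or TART. This gave 4 of 215 entries (HETA, TAHRE, TART and TART_B1), each filed as telomeric in the class LINE, and all 4 passed the filter on low counts that kept 203 elements.

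Flies have no telomerase. Their chromosome ends are instead lengthened by HeT-A, TART and TAHRE, non-LTR retrotransposons related to the jockey group that insert themselves into head-to-tail arrays at the ends. HeT-A (HETA in the tables) encodes a Gag protein but no reverse transcriptase, while TART and TAHRE carry both a Gag and a reverse transcriptase. In the ovary these elements are silenced by piRNAs in the germline, and their arrays are packed with heterochromatin proteins. Enok is the KAT6 acetyltransferase of the fly and is its main enzyme for H3K23ac, a mark associated with active transcription. The comparison of the knockdowns asked whether this mark or the histone H3 under it differed at the telomeric elements when Enok was depleted.

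The enok knockdown (enok_KD) carried the hairpin P{TRiP.HMS02634} and the control knockdown (GFP_KD) the hairpin P{VALIUM20-EGFP.shRNA.1} against EGFP, both inserted at attP2. All flies carried the drivers tj-GAL4, active in the somatic follicle cells, and GAL4::VP16-nos.UTR, active in the germline, so the knockdown was directed to both parts of the ovary. The level of enok itself is not held in the tables used here, so the depletion was not checked. RNAi ran at 29 °C for 2 to 3 days, and ovaries of females 2 to 3 days old, conditioned with wet yeast for 1 to 2 days, were used. Each group (H3K23ac or H3, in enok_KD or GFP_KD) had 2 libraries from pooled ovaries, and 4 input libraries of the series were not analysed here. Whole ovaries were used, so a change in some cells and a shift in the proportion of cell types cannot be told apart.

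Libraries held between 199303 and 370429 counts over all transposon entries for H3K23ac and between 411139 and 628808 for H3. The smallest was replicate 1 of enok_KD H3K23ac. Replicates differed more in enok_KD than in GFP_KD, with a chi-square statistic per degree of freedom of 38.7 for H3K23ac and 49.6 for H3 in enok_KD, against 2.72 and 5.52 in GFP_KD. The study describes the 2 replicates as independent, without saying which steps were repeated. A two-sided exact permutation test of 2 against 2 libraries cannot go below p = 0.333, and every smaller p-value rests on spread borrowed across elements.

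The telomeric elements held a sizeable part of the transposon reads. For H3K23ac they took 6.001% (95% Wilson interval 5.90 to 6.11) and 4.59% (4.52 to 4.67) of the counts in enok_KD, and 6.18% (6.11 to 6.26) and 5.97% (5.89 to 6.06) in GFP_KD. Their part of the H3 counts was 5.01% (4.95 to 5.08) and 4.55% (4.49 to 4.62) in enok_KD, and 5.42% (5.36 to 5.48) and 5.62% (5.57 to 5.68) in GFP_KD. The share was thus higher in H3K23ac than in H3 in every same-numbered pair, although the counting intervals overlapped in replicate 2 of enok_KD. The numbers are not known to pair the libraries. Across them, replicate 2 of enok_KD H3K23ac (4.59%) lay below replicate 1 of enok_KD H3 (5.01%). In GFP_KD both H3K23ac libraries lay above both H3 libraries. These intervals cover counting error only.

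HETA, the element best covered of the 4, had H3K23ac counts of 8414 and 9582 in enok_KD and 17004 and 13210 in GFP_KD. Its H3 counts were 15841 and 13182 in enok_KD and 21218 and 25077 in GFP_KD. After scaling by TMM to a common library size, HETA averaged 16495 ± 3535 normalised reads for H3K23ac in enok_KD and 17720 ± 195 in GFP_KD (SD, n = 2 each). For H3 it averaged 14504 ± 1776 in enok_KD and 14605 ± 87.5 in GFP_KD. The 2 knockdowns overlapped with both antibodies, and the enok_KD replicates lay on either side of the GFP_KD replicates.

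TAHRE, which shares part of its sequence with HeT-A, had H3K23ac counts of 533 and 657 in enok_KD and 1096 and 827 in GFP_KD, and H3 counts of 1049 and 897 in enok_KD and 1274 and 1603 in GFP_KD. Normalised, these were 1081 ± 172 in enok_KD and 1126 ± 35.6 in GFP_KD for H3K23ac. For H3 they were 973 ± 100.5 in enok_KD and 905 ± 45.5 in GFP_KD, and the groups again overlapped with both antibodies.

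TART had H3K23ac counts of 2766 and 2960 in enok_KD and 4443 and 3412 in GFP_KD, and H3 counts of 5067 and 4314 in enok_KD and 6756 and 8255 in GFP_KD. Its normalised H3K23ac averaged 5284 ± 1358 in enok_KD and 4604 ± 88.2 in GFP_KD, and its normalised H3 4688 ± 499 in enok_KD and 4730 ± 139.6 in GFP_KD. Replicate 1 of enok_KD was the highest H3K23ac library for TART and replicate 2 the lowest.

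TART_B1, a separate entry named after TART, was the least covered, with H3K23ac counts of 247 and 216 in enok_KD and 368 and 270 in GFP_KD. Its H3 counts were 403 and 328 in enok_KD and 316 and 426 in GFP_KD, although the enok_KD H3 libraries were the smaller ones. Normalised H3 was 365 ± 50.4 in enok_KD and 233 ± 23.03 in GFP_KD, with both enok_KD replicates (401 and 329.6) above both GFP_KD replicates (217 and 249). Normalised H3K23ac was 437 ± 171 in enok_KD and 373 ± 19.2 in GFP_KD, where the groups overlapped as they did for the other telomeric elements. Over all elements, H3K23ac did not overlap between the knockdowns in 44.3%, with enok_KD above in 30.5% and below in 13.8%. Among the 203 elements, H3 did not overlap between the knockdowns in 66%, with enok_KD above in 37.4% and below in 28.6%, so a separation like that of TART_B1 was common in the table.

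**Figure D1:**
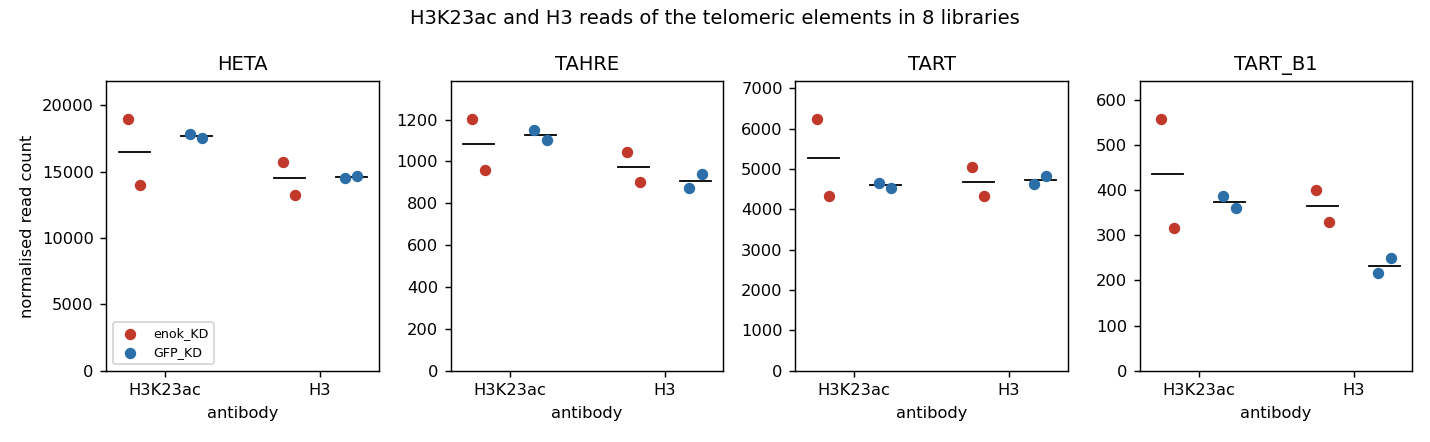
Normalised read counts (TMM-scaled, linear axis from 0) of HETA, TAHRE, TART and TART_B1 for each antibody, with 1 point per library and a bar at the mean of the 2 libraries. The enok_KD points spread more widely than the GFP_KD points, and the H3 counts of TART_B1 are the only case in which enok_KD (401 and 329.6) lies clear of GFP_KD (217 and 249).

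Next, H3K23ac was read per H3, which removes differences in copy number and mappability that both antibodies share. A log2 ratio of 0 stands for the scaling level set by TMM over all elements, not for equal amounts of the 2 proteins. In enok_KD the 4 elements lay close together, with log2 ratios of H3K23ac to H3 of 0.21 ± 0.38 for TART_B1, 0.17 ± 0.13 for HETA, 0.15 ± 0.22 for TART and 0.15 ± 0.081 for TAHRE (SD, n = 2). All neighbours in this order overlapped. These ratios divide the libraries of the same number, which is a convention here, and their SD depends on it. With libraries divided across the numbers the means are the same and the SD in enok_KD was 0.78 for TART_B1, 0.49 for HETA, 0.53 for TART and 0.38 for TAHRE, while in GFP_KD it was between 0.0072 and 0.068. In GFP_KD the order was TART_B1 (0.68 ± 0.22), TAHRE (0.31 ± 0.12), HETA (0.28 ± 0.025) and TART (−0.039 ± 0.070). There, TART_B1 lay above TAHRE and HETA above TART without overlap, whereas TAHRE and HETA could not be separated.

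By replicate, the ratio of HETA was 0.27 and 0.079 in enok_KD and 0.30 and 0.26 in GFP_KD. TAHRE had 0.21 and 0.090 in enok_KD and 0.40 and 0.23 in GFP_KD, and was therefore lower in both enok_KD replicates. For TART the ratio was 0.31 and −0.0041 in enok_KD and 0.011 and −0.088 in GFP_KD, with replicate 1 of enok_KD above both GFP_KD values and replicate 2 between them. The widest gap was at TART_B1, with 0.48 and −0.063 in enok_KD, below the 0.83 and 0.53 of GFP_KD. Its mean normalised H3K23ac was not lower in enok_KD (437, against 373 in GFP_KD), while its H3 was higher (365 against 233). The ratios of TAHRE and TART_B1 did not overlap between the knockdowns and those of HETA and TART did. Such a separation was found in 66% of the 203 elements (37.4% above, 28.6% below), so 2 of 4 is close to the share over all elements. Neither separated when H3 and H3K23ac libraries were paired across the replicate numbers. That pairing widened the enok_KD SD of all 4 elements (to between 0.38 and 0.78), so the overlap under it says little about TAHRE or TART_B1.

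Counting error was a small part of this spread for the abundant elements. The standard error of a single log2 ratio from counting alone was 0.015 to 0.019 for HETA and 0.028 to 0.034 for TART, below the SD over enok_KD replicates. For TART_B1 it was 0.11 to 0.13, the largest of the 4, against an SD of 0.38 in enok_KD and 0.22 in GFP_KD. For TAHRE it was 0.059 to 0.077, close to its SD of 0.081 in enok_KD and below that of 0.12 in GFP_KD. These SD are of ratios of same-numbered libraries. When the counts of the 4 elements were summed, the log2 ratio was 0.28 and 0.059 in enok_KD and 0.25 and 0.19 in GFP_KD.

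**Figure D2:**
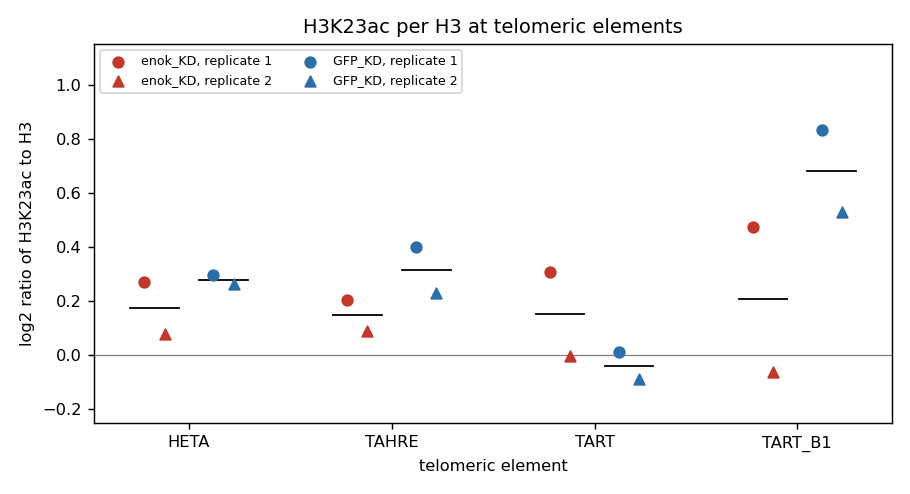
Log2 ratio of H3K23ac to H3 for each telomeric element, with enok_KD left of GFP_KD, circles for replicate 1, triangles for replicate 2 and bars at the mean of the 2. The 4 elements have means between 0.15 and 0.21 in enok_KD, while in GFP_KD they range between −0.039 (TART) and 0.68 (TART_B1).

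Within a knockdown, the log2 ratio was tested against 0, the TMM level, by the quasi-likelihood fit of edgeR. P-values were adjusted by Benjamini-Hochberg over all 203 elements. The median fitted log2 ratio over all elements was 0.044 in enok_KD and 0.14 in GFP_KD. In enok_KD none of the 4 telomeric elements passed an adjusted p-value of 0.05 (edgeR adjusted p between 0.375 and 0.429), where 60.1% of all elements did (32% higher and 28.1% lower). In GFP_KD only TART_B1 passed, with a fitted log2 ratio of 0.68 ± 0.24 (SE; edgeR adjusted p = 0.0318), a 1.60-fold enrichment, as compared with 68.5% of all elements called (36% higher and 32.5% lower). TAHRE (0.31 ± 0.15, edgeR adjusted p = 0.0870), HETA (0.28 ± 0.17, 0.162) and TART (−0.039 ± 0.18, 0.859) did not pass. The fit estimated 1 spread per element over all 8 libraries, so the wider enok_KD replicates also entered the GFP_KD errors. With voom, which weighted each group by its own spread, HETA (limma adjusted p = 0.00612) and TAHRE (0.00449) passed in GFP_KD and TART did not. The call of TART_B1 was lost when any of 5 libraries was left out: GFP_KD H3 replicate 1 (0.46, edgeR adjusted p = 0.237) or 2 (0.78, 0.0672), GFP_KD H3K23ac replicate 1 (0.62, 0.141) or 2 (0.73, 0.0920), or enok_KD H3 replicate 2 (0.60, 0.0859). TAHRE passed without replicate 1 (0.31, edgeR adjusted p = 0.0329) or 2 (0.31, 0.0325) of enok_KD H3K23ac. These calls are relative to the TMM level: with scaling factors from the piRNA cluster table, which moved the median of all elements by 0.76 in enok_KD and 0.79 in GFP_KD, all 4 elements lay between 0.90 and 0.99 in enok_KD and passed.

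The enok_KD ratios depended on single libraries. Without replicate 1 of enok_KD H3K23ac the fitted ratios were all below 0, at −0.051 for HETA, −0.019 for TAHRE, −0.12 for TART and −0.21 for TART_B1. Without replicate 2 of enok_KD H3, HETA (−0.0051), TAHRE (−0.028) and TART (−0.0017) were also below 0, and TART_B1 was 0.034. Without replicate 2 of enok_KD H3K23ac they were 0.39 for HETA (edgeR adjusted p = 0.0447), 0.31 for TAHRE, 0.41 for TART (0.0290) and 0.61 for TART_B1 (0.0176). The range of the log2 ratio over the 4 elements, formed between elements of the same libraries, was smaller in both enok_KD replicates than in both GFP_KD replicates. It was 0.27 and 0.15 in enok_KD and 0.82 and 0.62 in GFP_KD, and with libraries paired across the numbers 0.34 and 0.22 in enok_KD and 0.68 and 0.76 in GFP_KD. Over the 24 other LINE elements of the Jockey family, the same range was 3.37 and 3.30 in enok_KD and 2.75 and 3.27 in GFP_KD, which is no smaller in enok_KD. Over all 37 other LINE elements it was 3.92 and 4.19 in enok_KD and 4.06 and 4.38 in GFP_KD, smaller in enok_KD by number though overlapping. A range over many elements is not of like size to that over 4. With 2 against 2 replicates the difference at the telomeric elements cannot reach p < 0.05 in an exact test, and it was noticed after the values were seen.

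As compared with other LINE elements, the telomeric elements carried more H3K23ac per H3 than most. In enok_KD their median fitted log2 ratio was 0.18, against −0.41 over the 37 other LINE elements, −0.33 over the 24 Jockey elements and 0.044 over all elements. In GFP_KD it was 0.30, against −0.57 for other LINE elements, −0.44 for Jockey elements and 0.14 over all. The telomeric median was −0.084 in enok_KD without replicate 1 of enok_KD H3K23ac, 0.40 without replicate 2 and −0.0034 without replicate 2 of enok_KD H3. In GFP_KD it was 0.14 without replicate 1 of GFP_KD H3, where HETA was 0.15 and TAHRE 0.14. The medians of the other LINE and Jockey elements come from the fit of all libraries. They are not given with a library left out, so the comparison with them was not repeated in those settings. HETA lay above 27 of the 37 other LINE elements in enok_KD and 28 in GFP_KD, and TART_B1 above 27 in enok_KD and 31 in GFP_KD. TART, the lowest in GFP_KD, still lay above 26 of the 37. Against all 203 elements the place was ordinary, as HETA ranked 88 in enok_KD and 92 in GFP_KD from the top by fitted ratio. Of the other LINE elements, 10 were called higher and 17 lower in enok_KD, and 8 higher and 20 lower in GFP_KD. Among the Jockey elements the ratio in GFP_KD was highest at DOC6_DM (1.38 ± 0.25, edgeR adjusted p = 0.00119) and lowest at DOC2_DM (−1.61 ± 0.16, 9.40e-05). The medians describe the lists and were not tested.

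**Figure D3:**
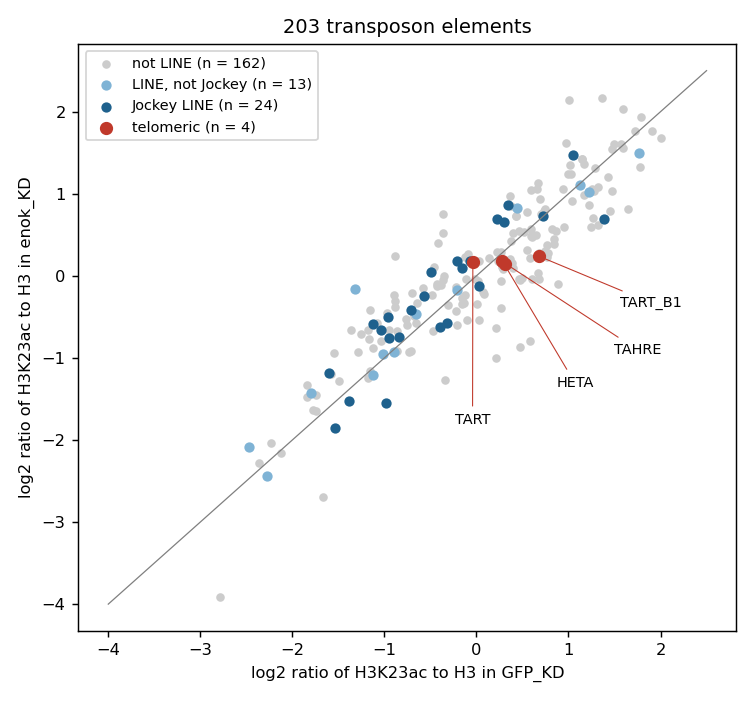
Fitted log2 ratio of H3K23ac to H3 in enok_KD (vertical) against GFP_KD (horizontal) for the 203 elements tested, with equality as a grey line. The telomeric elements (red) sit near the middle of all elements and above most LINE elements (blue), at 0.15 to 0.24 in enok_KD and −0.039 to 0.68 in GFP_KD.

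Upon enok knockdown, no change of the ratio of H3K23ac to H3 was called at a telomeric element in the fit of 4 group means. Libraries were scaled over these same elements, so a change of the mark shared by all elements would be scaled away. Only a departure from the other elements can show. With a replicate block within each knockdown, TART_B1 was called (−0.47, edgeR adjusted p = 0.0419) among 65 elements in all, though the replicate numbers are not known to pair the libraries. In enok_KD same-numbered H3K23ac and H3 libraries did deviate alike over elements (correlation 0.70), which the fit of 4 group means does not use. The log2 fold change was −0.094 for HETA (95% interval of the fit −0.63 to 0.45, edgeR adjusted p = 0.836) and −0.16 for TAHRE (−0.65 to 0.32, 0.691). It was 0.21 for TART (−0.37 to 0.79, 0.676) and −0.44 for TART_B1 (−1.22 to 0.34, 0.532). With edgeR 0% of all elements passed for the ratio (0 of 203). Before adjustment 29 elements had p under 0.05, none of them telomeric, and 5 passed with DESeq2 and 5 with voom. The direction at HETA was 0.11 without replicate 2 of enok_KD H3K23ac and 0.037 without replicate 1 of enok_KD H3, and that at TART was −0.078 without replicate 1 of enok_KD H3K23ac. TAHRE was −0.33 without replicate 1 of enok_KD H3K23ac and −0.0075 without replicate 2, and TART_B1 was −0.89 without replicate 1 and −0.069 without replicate 2.

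The median change of the ratio over the 4 elements was −0.13, against 0.052 over all elements, 0.20 over other LINE elements and 0.27 over Jockey elements. With 1 library left out the median of the 4 elements ranged between −0.33 (without enok_KD H3K23ac replicate 1) and 0.051 (without replicate 2), so its sign rests on single libraries. TART_B1 lay above only 2 of the 37 other LINE elements, TAHRE above 7, HETA above 10 and TART above 19. The Jockey elements at the 2 ends were DOC3_DM (0.54 ± 0.22, edgeR adjusted p = 0.299) and DOC6_DM (−0.69 ± 0.35, 0.371), neither past the threshold.

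H3K23ac and H3 were then compared separately. The scaling was the same, so a loss or gain shared by all elements would not show here either. For H3K23ac the log2 fold change was −0.10 for HETA (95% interval −0.49 to 0.28), −0.062 for TAHRE (−0.41 to 0.28), 0.20 for TART (−0.21 to 0.61) and 0.21 for TART_B1 (−0.35 to 0.77). None passed (edgeR adjusted p between 0.629 and 0.842), nor did any other element (0% of 203 with edgeR, 32 at an unadjusted p-value under 0.05, 4 with DESeq2 and 1 with voom). The median over all elements was 0.13, so that relative to it HETA stood at −0.24 and TAHRE at −0.20. These directions rested on single libraries. Without replicate 1 of enok_KD H3K23ac, TART was −0.091 and TART_B1 −0.24, and without replicate 2 HETA was 0.10 and TAHRE 0.096.

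For H3, HETA (−0.010, 95% interval −0.39 to 0.37), TART (−0.013, −0.42 to 0.40) and TAHRE (0.10, −0.24 to 0.44) lay near the median over all elements of 0.034, none past the threshold (edgeR adjusted p between 0.679 and 0.964). Single libraries turned their signs, with HETA at 0.027 and TART at 0.0087 without replicate 2 of enok_KD H3, TART at 0.018 without replicate 2 of GFP_KD H3, and TAHRE at −0.0064 without replicate 1 of enok_KD H3 and −0.075 without replicate 1 of GFP_KD H3. TART_B1 had 0.65 ± 0.24 (SE; 0.10 to 1.19), which is 1.57-fold, at an unadjusted p of 0.0251 by the edgeR fit, and it did not pass after adjustment (edgeR adjusted p = 0.133). By this value TART_B1 ranked 19 of 203 and above 36 of the 37 other LINE elements. Of all elements 2.46% passed for H3, all 5 of them higher and none telomeric. Under total count scaling 6 were higher and 42 lower, and the median of all elements moved by −0.21. TART_B1 passed with voom (limma adjusted p = 0.0392) and when only the H3 libraries were fitted (edgeR adjusted p = 0.0266). It also passed without replicate 1 (edgeR adjusted p = 0.0155) or 2 (0.0152) of enok_KD H3K23ac, and its adjusted p ranged between 0.0152 and 0.473 over all alternatives. H3 was not divided by input here, so the number of TART_B1 copies in the 2 fly lines and the amount of H3 on each copy cannot be told apart.

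**Figure D4:**
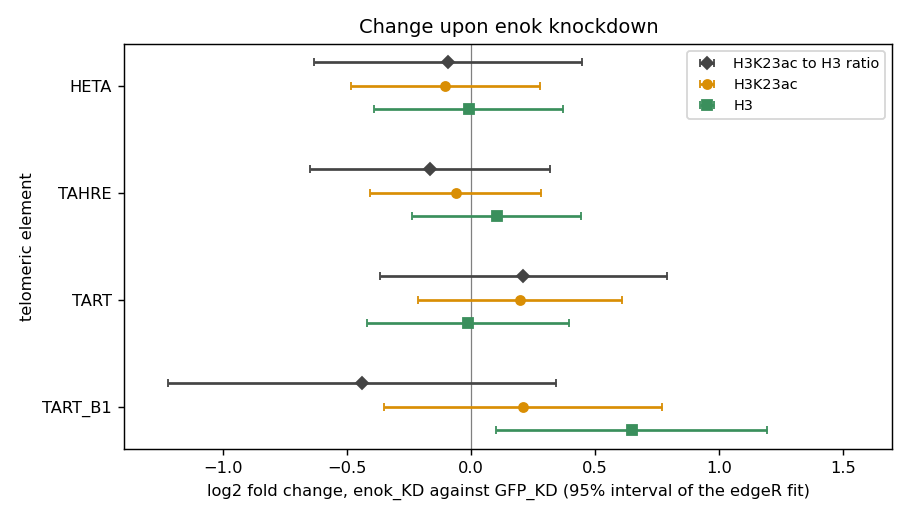
Fitted log2 fold change of enok_KD against GFP_KD for the H3K23ac to H3 ratio (diamonds), H3K23ac (circles) and H3 (squares), with 95% intervals of the edgeR fit before any adjustment over elements. All intervals include 0 except that of H3 at TART_B1 (0.10 to 1.19), which did not pass after adjustment.

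Finally, telomeric elements were read against each other within each library. Such a ratio of reads does not depend on how libraries were scaled, and the length of each element cancels when libraries are compared, so only the differences between libraries are of use. There were 3.04 and 3.24 HETA reads per TART read for H3K23ac in enok_KD, and 3.83 and 3.87 in GFP_KD. The counting intervals were 2.91 to 3.18 and 3.11 to 3.37 in enok_KD, against 3.70 to 3.96 and 3.73 to 4.02 in GFP_KD, and did not overlap. For H3 the same ratio was 3.13 and 3.06 in enok_KD and 3.14 and 3.04 in GFP_KD, where the groups overlapped. Per TART read, HETA thus held 0.82-fold as many H3K23ac reads in enok_KD as in GFP_KD, a log2 change of −0.29 that lay between −0.34 and −0.25 when any 1 library was left out. The log2 change for H3 was 0.00093. The exact permutation test gave p = 0.333 (n = 2 each), the smallest possible. Of the 202 elements other than TART, 30.7% did not overlap between the knockdowns in H3K23ac reads per TART read, 10.9% with enok_KD above and 19.8% below.

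TAHRE was likewise lower per TART read in H3K23ac, with 19.3 and 22.2 reads per 100 TART reads in enok_KD and 24.7 and 24.2 in GFP_KD. In H3 it had 20.7 and 20.8 in enok_KD, slightly above the 18.9 and 19.4 of GFP_KD. Against HETA, TAHRE overlapped between the knockdowns in H3K23ac, with 6.33 and 6.86 H3K23ac reads per 100 HETA reads in enok_KD and 6.45 and 6.26 in GFP_KD. In H3 it had 6.62 and 6.80 per 100 HETA reads in enok_KD, above the 6.004 and 6.39 of GFP_KD. Per HETA read, 51.5% of the 202 elements other than HETA did not overlap in H3K23ac (45.5% above, 5.94% below) and 60.9% in H3 (31.2% above, 29.7% below).

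Per TART read, TART_B1 did not overlap between the knockdowns in H3 and overlapped in H3K23ac. It had 7.95 and 7.60 H3 reads per 100 TART reads in enok_KD, with counting intervals of 7.19 to 8.80 and 6.80 to 8.51. In GFP_KD it had 4.68 and 5.16, with intervals of 4.18 to 5.24 and 4.68 to 5.69. This is a 1.58-fold difference, or 0.66 on the log2 scale (0.59 to 0.73 with any 1 library left out). In H3K23ac it had 8.93 and 7.30 per 100 TART reads in enok_KD and 8.28 and 7.91 in GFP_KD, which overlapped. Per 100 HETA reads, TART_B1 lay above in enok_KD with both antibodies, with 2.94 and 2.25 H3K23ac reads in enok_KD and 2.16 and 2.04 in GFP_KD (log2 change 0.29), and 2.54 and 2.49 H3 reads in enok_KD and 1.49 and 1.699 in GFP_KD (0.66). Of the 202 elements other than TART, 59.4% did not overlap in H3 reads per TART read, 30.2% with enok_KD above and 29.2% below, and the exact permutation p was again 0.333 (n = 2 each). For TART_B1 the ratio in GFP_KD, its change, the H3 change and the H3 reads per TART or HETA read all use the same H3 counts. They are therefore not separate results. The pairs of elements were chosen after the values were seen.

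**Figure D5:**
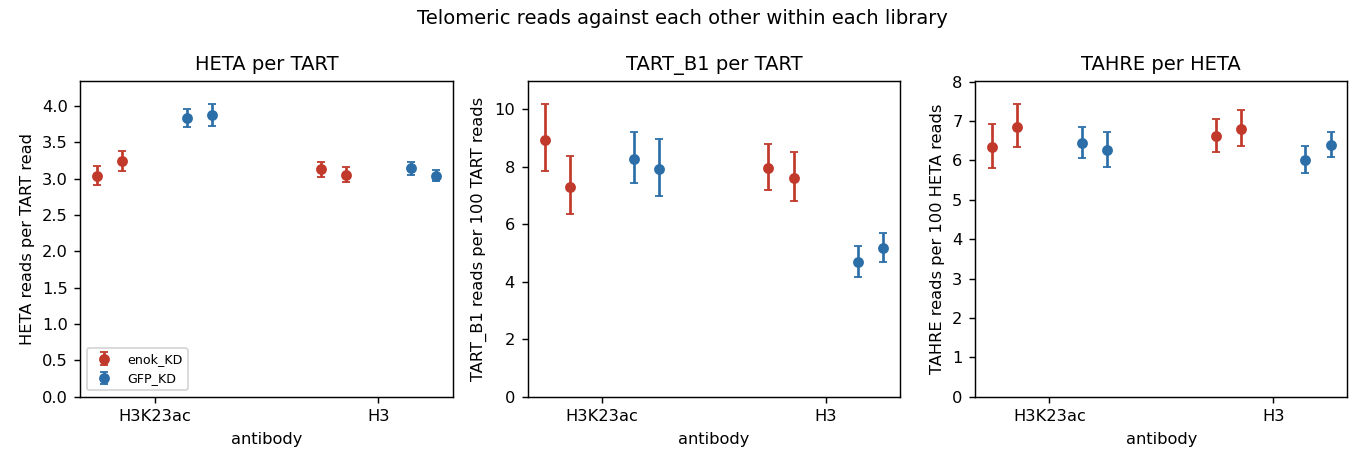
Reads of one telomeric element per read, or per 100 reads, of another in each of the 8 libraries, with 95% counting intervals and axes from 0. HETA per TART is lower in enok_KD for H3K23ac (3.04 and 3.24, against 3.83 and 3.87 in GFP_KD) and level for H3, and TART_B1 per 100 TART is higher in enok_KD for H3 (7.95 and 7.60, against 4.68 and 5.16 in GFP_KD) and level for H3K23ac.

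The profile over the 8 libraries was also compared with that of every other element, as the root mean square difference of log2 normalised counts after each element's mean was removed. HETA and TAHRE were each other's nearest element at 0.060, and TART was the third nearest of all elements to either (0.14). TART_B1 stood further off, at 0.30 from HETA, 0.27 from TAHRE and 0.31 from TART. By distance it ranked 49 from HETA, 37 from TAHRE and 53 from TART. Ranked from TART_B1 itself, TAHRE was at 4, HETA at 5 and TART at 8 among all other elements. Outside the telomeric elements, the LTR entry BLASTOPIA_LTR was nearest to HETA (0.080) and to TAHRE (0.10). Next came Invader1_LTR (0.15) and HMSBEAGLE_I (0.16) for HETA, and Gypsy11_I (0.15) and Invader1_LTR (0.17) for TAHRE. TART was closest to Invader1_LTR (0.11), the Jockey element FW_DM (0.13) and Gypsy12A_LTR (0.14), and TART_B1 to Gypsy11_I (0.15), NOMAD_LTR (0.16) and TIRANT_I (0.26). These distances describe 8 libraries that share scaling and were not tested.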

How the data were processed

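ChIP-seq reads of H3 and H3K23ac from enok_KD and GFP_KD ovaries were processed by the authors, who used Bowtie2 (version 2.2.1) to place single-end reads on the dm3 build, with no mismatch allowed and only uniquely placed reads kept. Trimmomatic and bedtools are named in the submitters' processing notes. The deposited values are counts of reads per transposon element, not normalised and not pooled. The repeat annotation, the counting settings and the handling of duplicates are not given in the sources used here. Identical copies yield no unique reads, so these counts represent diverged telomeric copies in the reference, and reads of related elements (HETA and TAHRE, or TART and TART_B1) may be split by the annotation in a way that was not tested. The 4 tables held 0 columns without a library. The cluster tables also carry the authors' own DESeq2 comparison, which was not used.

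Elements with a mean count of at least 10 were fitted with edgeR 4.0.16 (R 4.3.3; TMM, quasi-likelihood, 4 group means, no replicate block), and a call needed an adjusted p-value under 0.05 over all elements. Limma 3.58.1 (voom) and DESeq2 1.42.0 were alternatives, with other scalings, filters, fits and each library left out. Log2 ratios used an offset of 0.5. Intervals are fitted values with 95% limits. Named elements were all telomeric elements, the 3 other elements nearest to each in profile, and the Jockey elements with the highest and lowest ratio in GFP_KD and change. The members and lists were chosen with earlier results of these data known.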

Additional observations from a re-analysis of the deposited data

How the results depend on the processing

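The count of elements past the threshold depended on the method. For the change of the ratio it was 0, with 5 under DESeq2, 5 under voom, and between 0 and 22 with 1 library left out (22 without enok_KD H3K23ac replicate 2). For H3 it was 5, with 2 under DESeq2 size factors, 48 under total counts, 3 under factors from the cluster table, 0 with a mean count of at least 100, 26 with DESeq2, 23 with voom, 29 with the H3 libraries alone, and between 0 and 41 with 1 library left out (39 without enok_KD H3K23ac replicate 1 and 41 without replicate 2, 1 without GFP_KD H3 replicate 1, and 0 without enok_KD H3 replicate 2, GFP_KD H3 replicate 2 or either GFP_KD H3K23ac library). For H3K23ac it was 0, with 4 under DESeq2, 1 under voom, and between 0 and 10 with 1 library left out (10 without enok_KD H3K23ac replicate 2). The 2 telomeric elements whose ratios did not overlap became 0 with libraries paired across the numbers, a pairing that widened the enok_KD SD of each telomeric element. Within a knockdown, factors from the cluster table moved the median ratio of all elements by 0.76 in enok_KD and 0.79 in GFP_KD, with 128 higher and 18 lower in enok_KD (65 and 57 by TMM) and 128 higher and 26 lower in GFP_KD (73 and 66 by TMM). In GFP_KD all telomeric elements then passed, with TART at 0.75, HETA at 1.07, TAHRE at 1.10 and TART_B1 at 1.47. With voom, HETA, TAHRE and TART_B1 passed in GFP_KD and TART did not. With total counts, H3 of TAHRE was −0.11.

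Of 340 values of a telomeric element under an alternative, 293 kept both direction and call and 21 turned direction. With 1 library left out, the change of the ratio ranged between −0.33 and 0.11 for HETA, −0.33 and −0.0075 for TAHRE, −0.078 and 0.45 for TART and −0.89 and −0.069 for TART_B1. H3 ranged between −0.14 and 0.027 for HETA, −0.075 and 0.16 for TAHRE and −0.17 and 0.018 for TART. H3K23ac ranged between −0.34 and 0.10 for HETA, −0.23 and 0.096 for TAHRE, −0.091 and 0.44 for TART and −0.24 and 0.58 for TART_B1. The ratio within enok_KD ranged between −0.051 and 0.39 for HETA, −0.028 and 0.31 for TAHRE, −0.12 and 0.41 for TART and −0.21 and 0.61 for TART_B1.

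The replicate numbers were not taken as pairing in the tests, as no source states it, although ratios per replicate divide same-numbered libraries. Deviations of same-numbered H3K23ac and H3 libraries correlated at 0.70 over elements in enok_KD and at −0.020 in GFP_KD. The GFP_KD replicates differed little (chi-square per degree of freedom 2.72 and 5.52, against 38.7 and 49.6 in enok_KD), so the GFP_KD correlation says little on pairing. Tests without a block do not use what same-numbered enok_KD libraries shared. With a replicate block within each knockdown, 65 elements passed for the ratio, and of the telomeric elements TART_B1 did (−0.47, edgeR adjusted p = 0.0419). Within a knockdown the same block gave calls at HETA in enok_KD (0.17, edgeR adjusted p = 0.0486) and at HETA (0.28, 0.00103) and TAHRE (0.32, 0.00166) in GFP_KD. A replicate block over all 4 groups gave 7 elements for H3 and 1 for H3K23ac.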
